A study of Mus musculus with 227 samples.

Results

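The 9 vehicle cultures of a drug screen in mouse cortical cells are described here: they received solvent and no drug, so what differs between them is variation that every drug effect in the screen is read against. They are the libraries whose agent label is Vehicle, 9 of 227 in all. The other 218 libraries are 1 culture for each of 218 drugs. All were primary cerebrocortical cultures, neurons grown together with glia, from embryonic day 16.5 F1 embryos of an FVBN mother and a C3B6F1 father. They were kept in 6-well plates and treated on day 21 in vitro for 8 h. The vehicle wells received 0.2% DMSO. The labels do not say whether the 9 vehicle wells came from separate dissections, so a p-value below measures only the spread between these libraries, which may be partly technical.

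Each library name carries a run code, then a short number whose meaning the labels do not give and which is called the lane here, then a label number for the drug libraries. The 9 vehicles, called V1 to V9, fall on 6 of the 9 run codes. V2 and V3 carry run code HI.3146, V6 and V7 carry HI.3083, and V8 and V9 carry HI.3147. V1 is alone on HI.3122, V4 on HI.3145 and V5 on HI.3078. Drug libraries that share both the run code and the lane of a vehicle are called its lane-mates. There are 26 of them, 2 for V3 and 3 for each of the other vehicles.

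Neurons in culture fire spontaneously once synapses have formed. Calcium entry during firing activates the transcription factors CREB and SRF, which switch on immediate early genes such as Npas4 and Fosb within minutes and effector genes such as Ptgs2, Nptx2 and Bdnf after them. Low oxygen stabilises the transcription factor HIF, which raises glycolytic genes such as Hk2 and Slc16a3. A cortical dissection carries along astrocytes, oligodendrocyte precursors and small numbers of meningeal, vascular, microglial and choroid plexus cells.

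The vehicle libraries held 31401522 to 43766202 counts with a median of 38144735, 18151 to 18673 genes with at least 1 count, and 3.099% to 3.91% mitochondrial counts. No pair was a duplicate: the chi-square statistic per gene was at least 10.4 for each of the 36 pairs, where sampling noise alone gives about 1. The cell type labelled was present in each library. Slc17a7, the vesicular glutamate transporter of excitatory neurons, lay between 409 and 964 CPM (counts scaled to library size), and Gfap, the astrocyte intermediate filament, between 323 and 982. Of 10 microglia markers only 3 reached a mean of 1 CPM. Of 7 blood cell markers none did, and 3 had no count in any vehicle.

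Promoters of 4 genes that were among the most variable are shown first, 2 activity genes and 2 genes of glycolysis and lactate export, which varied together. They were picked because their windows hold a motif; the windows of Inhba and Adm, from the same cluster, hold neither. Each sequence runs from 250 bases before to 50 bases after a RefSeq start (GRCm38.p6), 5′ to 3′ on the gene's strand. Capitals mark TGACG, the core of the CREB site, and ACGTG, the core of the HIF site, on either strand. The motifs overlap where TGACGTG occurs on either strand, and in the stretch CGTCACGTG of Ptgs2.

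Npas4 (chr19:4989922-4990221, minus strand): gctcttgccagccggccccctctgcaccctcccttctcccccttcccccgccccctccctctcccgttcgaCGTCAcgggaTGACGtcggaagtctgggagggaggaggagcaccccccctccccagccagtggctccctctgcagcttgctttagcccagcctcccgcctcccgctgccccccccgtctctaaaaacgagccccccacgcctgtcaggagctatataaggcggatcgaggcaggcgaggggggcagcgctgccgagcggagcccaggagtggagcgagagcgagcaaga

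Ptgs2 (chr1:150099781-150100080, plus strand): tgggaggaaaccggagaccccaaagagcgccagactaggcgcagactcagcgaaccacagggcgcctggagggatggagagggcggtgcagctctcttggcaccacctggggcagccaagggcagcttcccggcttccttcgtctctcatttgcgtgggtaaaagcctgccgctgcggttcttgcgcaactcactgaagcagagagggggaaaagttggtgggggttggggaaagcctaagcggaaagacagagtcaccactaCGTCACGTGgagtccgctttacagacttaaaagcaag

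Slc16a3 (chr11:120948817-120949116, plus strand): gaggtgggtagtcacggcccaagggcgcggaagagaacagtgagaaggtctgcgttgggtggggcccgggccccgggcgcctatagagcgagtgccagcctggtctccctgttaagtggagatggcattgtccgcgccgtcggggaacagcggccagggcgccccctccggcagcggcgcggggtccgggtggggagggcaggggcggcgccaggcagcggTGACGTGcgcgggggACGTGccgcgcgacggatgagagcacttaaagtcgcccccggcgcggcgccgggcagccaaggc

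Hk2 (chr6:82774405-82774704, minus strand): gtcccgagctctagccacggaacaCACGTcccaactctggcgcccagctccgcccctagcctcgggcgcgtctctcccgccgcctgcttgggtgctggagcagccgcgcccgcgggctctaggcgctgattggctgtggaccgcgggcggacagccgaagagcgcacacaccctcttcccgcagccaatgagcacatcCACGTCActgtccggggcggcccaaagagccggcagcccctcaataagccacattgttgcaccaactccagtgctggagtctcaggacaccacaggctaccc

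The Npas4 window held 2 TGACG matches and no ACGTG. Those of Ptgs2, Slc16a3 and Hk2 each held 1 TGACG and 2 ACGTG matches. In Ptgs2 the 2 ACGTG matches are the palindrome CACGTG read on both strands, so they are a single place. In Slc16a3 and Hk2 they lie apart. Among all 32851 promoter windows of the table, 20.8% held TGACG and 19.6% held ACGTG. A match says only that these letters lie in the window.

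Most genes hardly varied between vehicles. Genes with a mean of at least 1 CPM over the 9 vehicles, 13034 of them, were ranked by the variance of log2 CPM. The SD of log2 CPM had a median of 0.15, a 5th percentile of 0.05 and a 99th percentile of 0.88, and 3467 genes (26.6%) stayed under 0.1. Among genes with a mean of 10 CPM or more, Polr3a, a subunit of RNA polymerase III, was the steadiest at 33.2 to 34.5 CPM. Cryzl1 lay between 38.9 and 40.7 CPM and Copz1, a coat protein of Golgi vesicles, between 107 and 113. Genes coding for chaperones of the endoplasmic reticulum varied least of the 35 gene lists with a ranked member, with a median SD of 0.10.

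Only 82 genes (0.629%) had an SD above 1, that is, a typical deviation of more than 2-fold. Ttr, Krt6a, Acta2, Ptgs2 and Stab1 led the ranking with SDs of 3.097, 2.401, 2.393, 2.062 and 1.969. These values are the ranking itself and are descriptions. Of the 100 most variable genes, 92 were protein-coding, and their correlations over the 9 vehicles sorted them into 4 clusters of 54, 32, 8 and 5 genes, with Ttr alone.

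The first cluster, 54 genes led by Krt6a, held 7 of the 15 genes on the list of immediate early transcription factors, 6 of the 20 on that of activity-dependent effectors, 2 of the 15 on the hypoxia list (Adm and Hk2) and 2 of the 7 oligodendrocyte precursor markers (Bcas1 and Gpr17). Its other members are on none of the lists, and the cluster is 54 of 13034 ranked genes. Its members included the transcription factors Npas4, Fosb, Fos, Egr2, Egr4, Nr4a1 and Maff, the effectors Ptgs2, Inhba, Nptx2, Bdnf and Arc, and, beside Adm and Hk2, the genes Slc16a3, Mgarp and Ndufa4l2. Npas4, a factor specific to neuronal activity, had 21.7, 8.91, 24.9, 8.69, 56.1, 113, 118, 147 and 15.6 CPM in V1 to V9 (SD of log2 CPM 1.61). V6, V7 and V8 were high, V5 was intermediate, and V2 and V4 were lowest. Ptgs2, the inducible cyclooxygenase, was also highest in V6 to V8 and lowest in V2 and V4: 9.43, 2.71, 23.0, 1.35, 29.7, 71.9, 43.9, 70.5 and 5.81 CPM. Fosb ranged from 4.109 CPM in V4 over a median of 21.3 to 86.5 in V8. Nptx2, a secreted pentraxin that gathers glutamate receptors at synapses, ranged from 20.9 over 82.5 to 289 CPM in the same 2 libraries. Inhba, the activin A subunit, ranged from 1.01 over 6.77 to 23.1 CPM, with V6 highest. Krt6a, a keratin, was itself scarce, with 3 counts in V4 and 493 in V8.

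Hk2, Slc16a3 and Adm were lowest in the same 2 libraries, V2 and V4. Hk2, the first enzyme of glycolysis, had 33.4, 5.86, 21.6, 2.65, 45.3, 60.8, 70.4, 56.9 and 24.7 CPM in V1 to V9. Slc16a3, the lactate exporter MCT4, had 8.78, 0.463, 7.35, 0.546, 10.5, 12.3, 15.6, 12.7 and 5.81 CPM. V2 and V4 were the only vehicles under 1 CPM of Slc16a3, and the other 7 lay within 5.81 to 15.6. Adm, the vasodilator adrenomedullin, ranged from 0.676 CPM in V4 over 8.63 to 17.5 in V8. Vegfa, the vascular growth factor, ranged from 60.9 CPM in V4 over 159.5 to 300.3 in V8, and Ldha, lactate dehydrogenase, from 164 over 361 to 603.

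By list, 7 of 15 immediate early transcription factors and 6 of 20 activity-dependent effectors were among the 100 most variable genes. The median SD was 0.89 and 0.77, against 0.15 for all ranked genes. The top 100 are 100 of 13034 ranked genes, and the lists were chosen with earlier results of these data known. Of 14 ranked members of the hypoxia list 2 were in the top 100 and the median SD was 0.61. Of the 12 genes of glycolysis none was, with a median SD of 0.37. Averaged as deviations of log2 CPM from the mean of the vehicles, the immediate early list ran from -1.20 in V2 and -1.14 in V4 to 1.1469 in V8, a range of 2.34. The hypoxia list ran from -1.23 in V4 to 0.76 in V7. V1 and V9 differed between the lists: V1 was at -0.52 for the immediate early genes and 0.09 for hypoxia, and V9 at -0.68 and -0.14.

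**Figure D1:**
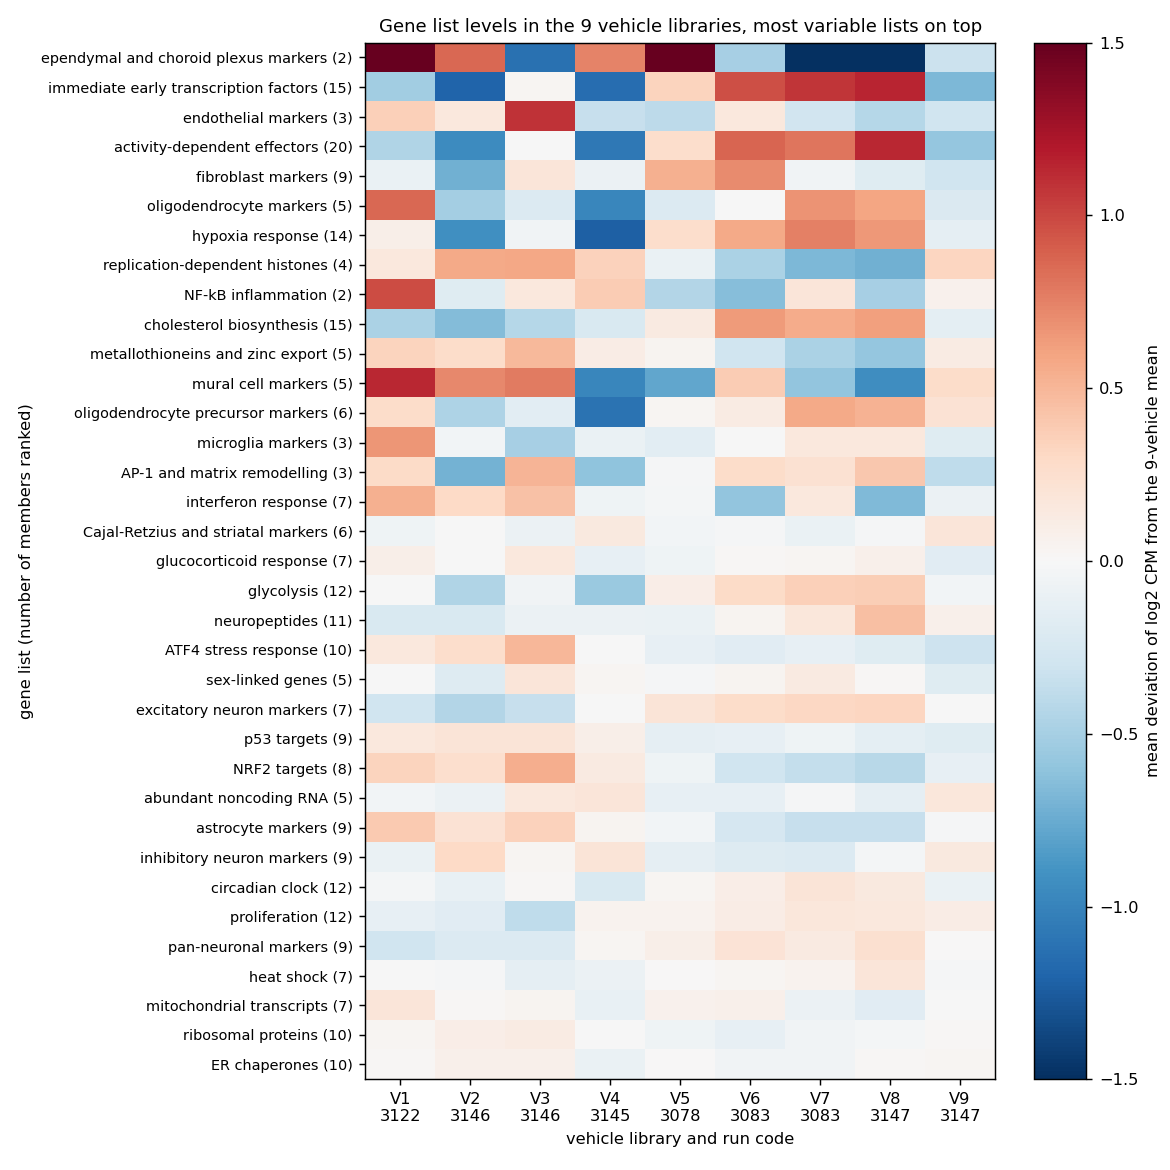
Mean deviation of log2 CPM from the mean of the 9 vehicles for 35 gene lists (rows, with the number of ranked members, ordered by the median SD of their genes) in each vehicle library (columns, with the run code). Red is above and blue below the mean, and colours end at -1.5 and 1.5. Immediate early genes are highest in V6, V7 and V8 and lowest in V2 and V4, while mural cell markers are highest in V1 to V3 and lists at the bottom hardly differ.

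Of the 54 genes of the first cluster 39 were matched by symbol to the RefSeq promoter table, 59 windows in all. TGACG occurred in 17 of these windows (28.8%) and ACGTG in 14 (23.7%), beside 20.8% and 19.6% of all windows. A gene with several starts has several windows, and some of them overlap, as in Egr2, yet each was counted. By gene, 14 of the 39 held TGACG and 13 held ACGTG. The shares of all windows count windows and not genes, so they are no background for these gene counts. No test was made of these shares.

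The second cluster, 32 genes led by Acta2, was high in V1, V2 and V3 and low in V7 and V8. Acta2, smooth muscle actin, had 8.04, 5.93, 5.01, 0.156, 0.204, 2.31, 0.265, 0.117 and 2.75 CPM in V1 to V9. These levels rest on 4 to 259 counts. V4, V5, V7 and V8 had 9 counts or fewer, and the other 5 had 88 or more. Tagln, a smooth muscle protein that binds actin, had its 3 highest values in V1, V3 and V2 (6.33, 5.04 and 3.43 CPM) and its lowest in V5 (0.476). The cluster also held Stab1, Mpeg1 and Lyz2, known from macrophages, whose r with Acta2 over the 9 vehicles was 0.25, 0.32 and 0.46. Stab1, a scavenger receptor, had 13.9 CPM in V1, 2.68 in V4, 2.50 in V2 and under 1 in the other 6. Mpeg1, a pore-forming protein of macrophages, had 5.493 CPM in V1, 2.00 in V4 and 0.105 in V6, and Lyz2 had 3.69 in V1 and 0.315 in V6. Csf1r, the receptor that microglia need to survive, was also highest in V1 (4.44 CPM), with the other 8 between 0.781 and 1.76.

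Slc7a11, the cystine importer of glia, is a better-expressed member of the second cluster and had 202, 242, 282, 191, 84.9, 54.2, 49.9, 41.4 and 79.6 CPM in V1 to V9. V1 to V4 lay at 191 or above and V5 to V9 at 84.9 or below, with no overlap. Genes outside the 100 most variable showed a like order. Foxj1, the master factor of motile cilia, was at 28.6 to 51.7 CPM in V1 to V4 and 9.73 to 21.8 in V5 to V9. Aqp4, the astrocyte water channel, ranged from 156 in V8 to 660 in V1, and Gfap from 323 in V7 to 982 in V1. The division of Slc7a11 split no run code, and each side held several codes. It puts HI.3122, HI.3145 and HI.3146 on the high side and HI.3078, HI.3083 and HI.3147 on the low side. It was seen in the data and was not tested.

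In bulk RNA, fewer cells of a type and less RNA per cell cannot be told apart, and this holds for each cell type marker here. The astrocyte list ran from -0.35 in V7 and V8 to 0.39 in V1, and the excitatory neuron list the opposite way, from -0.44 in V2 to 0.32 in V8. The average of the oligodendrocyte precursor list was lowest in V4 (-1.11), with V2 next at -0.47. Its 2 members among the 100 most variable genes, Bcas1 and Gpr17, were lowest in V4. Other members varied less, such as Pdgfra (SD 0.29) and Olig2 (SD 0.16). Bcas1, a gene of early myelinating cells, had 4.52 CPM in V4 and 14.3 to 42.1 in the other 8. Gpr17, a receptor of committed precursors, had 10.7 CPM in V4 and 31.0 to 96.7 in the others. Mbp, myelin basic protein, ranged from 18.6 CPM in V4 to 68.8 in V8.

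The fourth cluster held 5 genes, Ptgds, Aldh1a2, Slc13a4, Itih2 and Apod. Ptgds makes prostaglandin D2 and Aldh1a2 makes retinoic acid, and both are known from the meninges. Ptgds had 22.5, 24.4, 23.7, 28.0, 60.4, 42.7, 5.74, 4.98 and 10.7 CPM in V1 to V9. V5 and V6 were high, V7, V8 and V9 were low, and V1 to V4 lay within 22.5 to 28.0. Aldh1a2 had 5.62 CPM in V5, 5.437 in V6 and 3.22 or less elsewhere. Col1a2, a fibroblast collagen, was outside the cluster, with 18.96 CPM in V3, 17.7 in V5, 17.2 in V6 and 5.50 in V9.

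The third cluster held 8 genes, among them Rn18s-rs5, Yam1, Mir6236, Gm23935 and Lars2, several of which carry sequence like that of ribosomal RNA. Yam1 had 26766 CPM in V1 and 28147 in V3, but 1337 in V2, 5430 in V6 and 68951 in V7. Yam1, Rn18s-rs5, Gm23935, Mir6236 and Lars2 together took 0.154% of all counts in V2, 0.593% in V6 and 2.73% to 6.98% in the other 7. V6 and V7, both high in the first cluster, differed here: V6 was low and V7 was the highest of the 9.

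Ttr, the thyroxine carrier made by choroid plexus, topped the ranking and clustered with nothing. It had 1340 counts in V5, 120 in V1, 48 in V4, 43 in V2 and 20 in V6. The other 4 vehicles had 12 counts or fewer, with 0 in V7, a count that allows up to 3 for counting error alone. Subtracting the level of the lane-mates did not shrink its spread (115% of the variance remained).

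**Figure D2:**
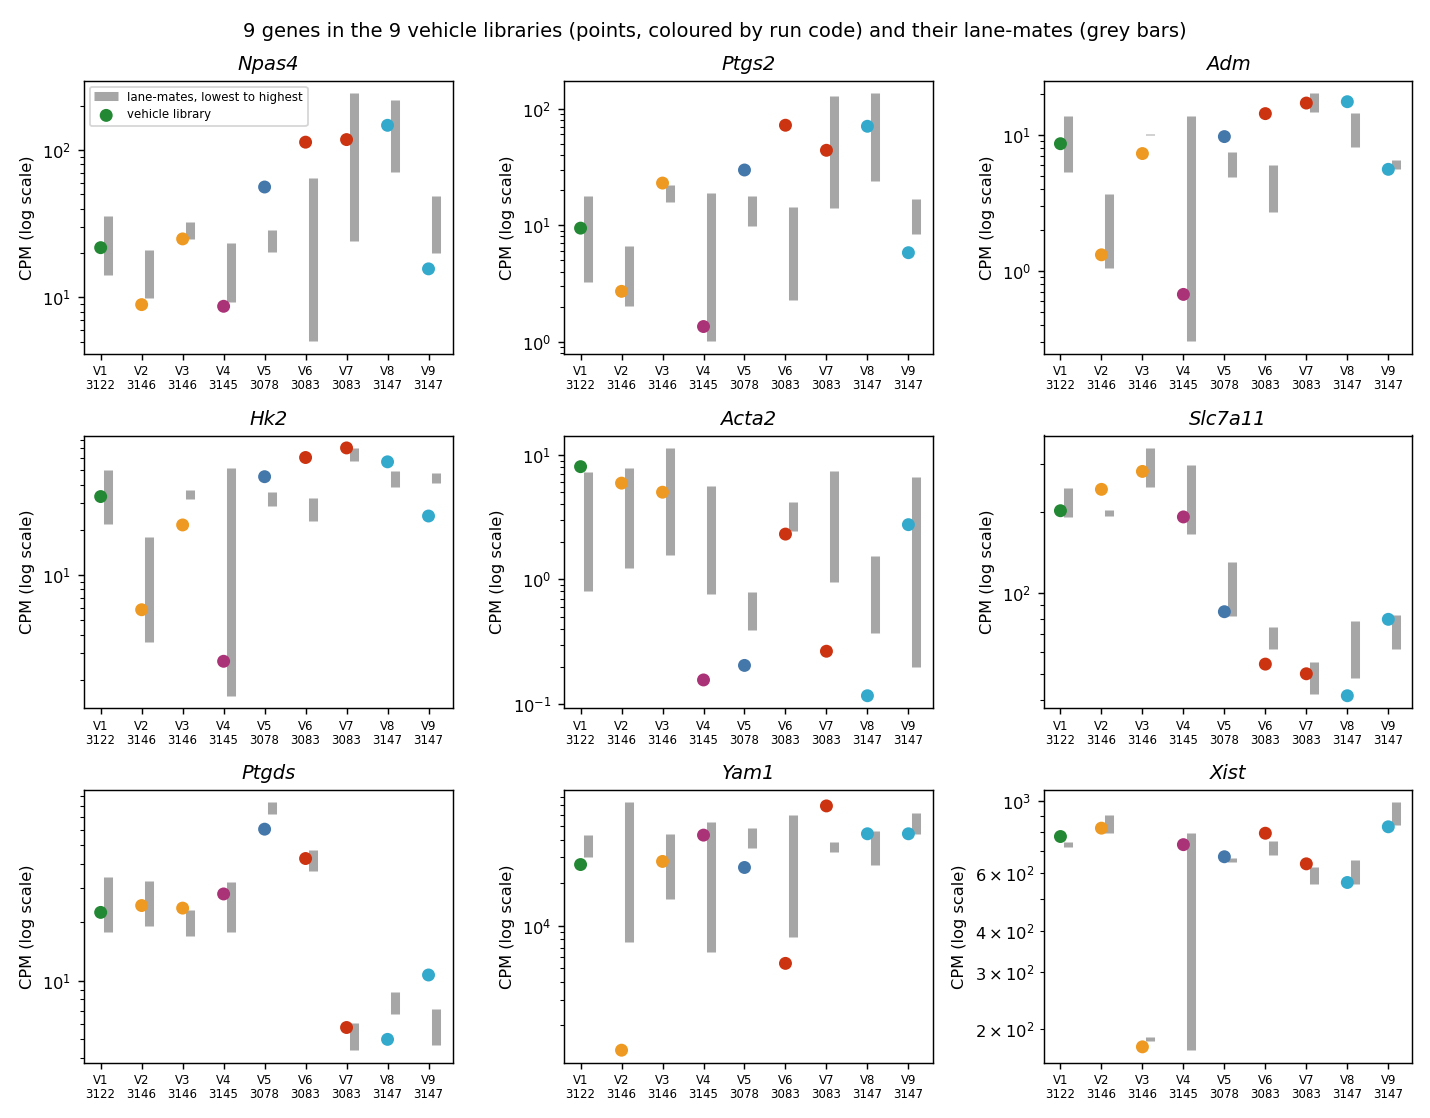
CPM on a log axis for 9 genes in vehicles V1 to V9 (points, coloured by run code; run codes under the axis) and the range of their 2 or 3 lane-mates (grey bars). Npas4, Ptgs2, Adm and Hk2 peak in V6 to V8, Slc7a11 falls into V1 to V4 and V5 to V9, Ptgds peaks in V5 and V6, Yam1 is lowest in V2 and V6, and Xist is low in V3 and its lane-mates.

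The clusters were drawn from 9 libraries, so their correlations were looked at again in libraries that had no part in forming them, the 174 drug libraries of the 6 run codes. The mean r between members was 0.73 for the first cluster, 0.67 for the second, 0.64 for the third and 0.90 for the fourth, against 0.12 for all pairs of the 100 genes. With each run code centred on its own mean, the 4 values were 0.66, 0.55, 0.64 and 0.83. These are means over genes that share libraries and are given without a p. The cluster averages of the first and second cluster ran opposite to each other (r = -0.63, and -0.64 within run codes). Drugs also act on these libraries, and their part was not tested.

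For 6 genes the relation was tested pair by pair over the 174 drug libraries, with permutation p-values adjusted over 15 pairs. The resampling took the libraries as exchangeable, although libraries that shared a run code or lane were closer to each other. These p-values may therefore be too small. Ptgs2 and Fosb had r = 0.91 and Spearman's rho = 0.92, and r = 0.90 without the 2 libraries farthest from the median of Ptgs2. The adjusted permutation p was 1.875e-05, from the smallest p that 100000 resamples can give. Within single run codes r lay between 0.70 and 0.97. Ptgs2 and Adm, the activity gene and the low-oxygen gene, had r = 0.86 and rho = 0.87 (adjusted permutation p = 1.875e-05, 0.87 without the 2 libraries, 0.72 to 0.95 within run codes). Ptgs2 and Slc7a11 ran opposite, with r = -0.54 and rho = -0.53 (adjusted permutation p = 1.875e-05, -0.53 without the 2 libraries). Within run codes that r was below 0 in all 6, from -0.68 in HI.3146 to -0.06 in HI.3145. Ttr and Ptgs2 had r = -0.34 and rho = -0.34 (adjusted permutation p = 1.875e-05, -0.33 without the 2 libraries). Within run codes r was below 0 in 5 of 6 and 0.32 in HI.3147. With run codes centred it was -0.23 (adjusted permutation p = 0.004125). Acta2 was not related to the other 5 genes past the threshold (r from -0.06 to 0.05, adjusted permutation p 0.588 to 0.93). In all, 10 of the 15 pairs passed. With run codes centred the call of Ttr and Slc7a11 was lost (r = 0.28 before and 0.16 after, adjusted permutation p = 0.059).

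Variation between vehicles and variation between drug cultures fell on the same genes. Of the 100 genes with the largest SD over the vehicles, 72 were also among the 100 with the largest SD over the 174 drug libraries. Both sets of 100 were taken from the same 13034 ranked genes. The median SD of all 13034 genes was 0.15 in both sets.

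The first question about run codes was whether vehicles on the same code were alike. The distance between 2 libraries was taken as the root mean square difference of log2 CPM over the 13034 genes. The 3 pairs with a shared code were 0.300 apart on average, and pairs with different codes 0.374. Over all 1260 ways to draw 3 such pairs the mean was 0.367, and a two-sided exact permutation test did not separate the run codes from other pairings (p = 0.3302). V8 and V9, both of run code HI.3147, were 0.362 apart, the 23rd of 36 pairs in order of distance. The closest pair was V7 and V8, of different codes, at 0.170. The first principal component held 63.6% of the variance and ran from V2 to V8, with V9 near 0.

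**Figure D3:**
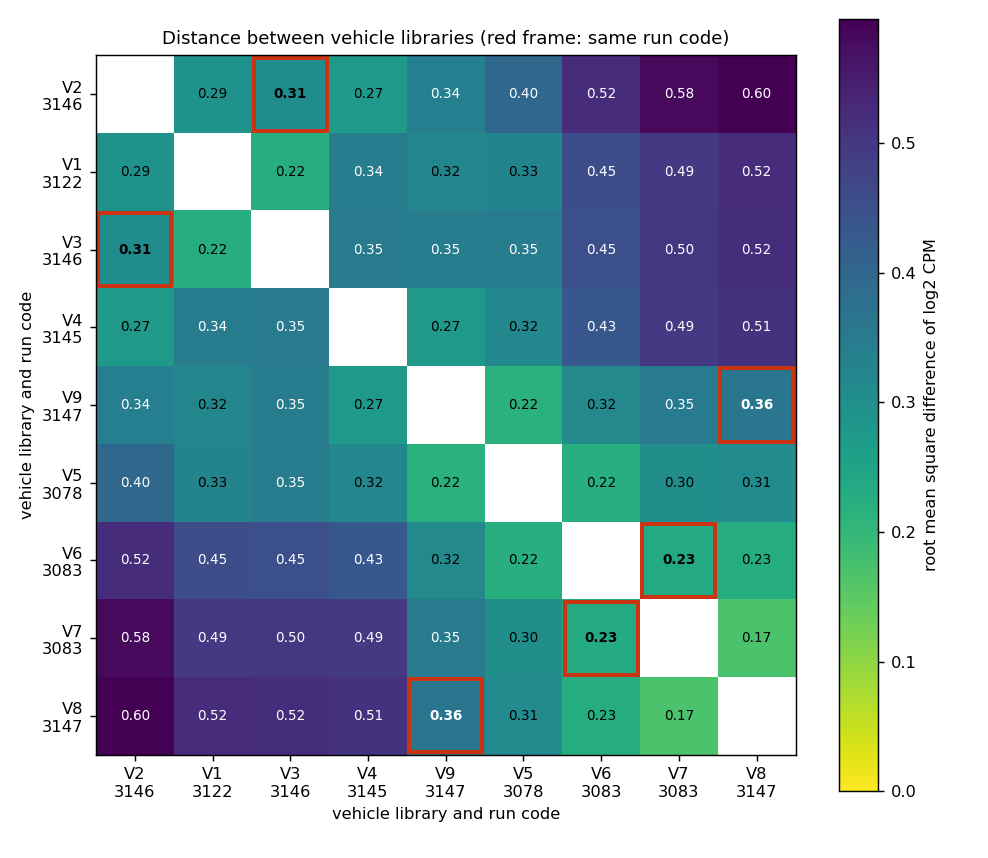
Root mean square difference of log2 CPM over 13034 genes for each pair of the 9 vehicle libraries, ordered along the first principal component, with run codes on both axes and pairs of the same code framed in red. The framed pairs are 0.23, 0.31 and 0.36 apart, while V7 and V8, of different codes, are 0.17 apart.

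Gene by gene, edgeR's quasi-likelihood F test over the 6 run codes called 0 of 15398 genes at an adjusted p under 0.05 (background 0%), although 3160 had an unadjusted p under 0.05 (20.5%). Limma-voom also called 0, and DESeq2's likelihood ratio test called 2155. Only 3 residual degrees of freedom stand behind the F test, all from the 3 pairs of vehicles on a shared code. The count was 1554 without V8 and 2485 without V9. The scripts were also run on simulated counts with the same layout, in which genes varied independently of each other. There the F test recovered 90% of genes changed by 1 on the log2 scale. Recovery in the vehicle libraries themselves was not tested.

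Between codes with 2 vehicles each, HI.3083 against HI.3146 called 2674 of 15398 genes (17.4%). Of these 1148 (7.46%) were higher and 1526 (9.91%) lower in HI.3083, that is, in V6 and V7 against V2 and V3. Leaving out V2, V3, V6 or V7 gave 0 calls in each case, though 3172 to 4313 genes had an unadjusted p under 0.05, and leaving out V8 or V9 gave 4832 and 4819. With library totals and no scaling factor the counts were 656 higher and 1825 lower. The other 2 contrasts, HI.3147 against HI.3146 and HI.3147 against HI.3083, called 0 genes each, with 4240 and 267 at an unadjusted p under 0.05. Limma-voom also called 0 in both. Without V9 the first of the 2 called 3868. DESeq2 called 1916 genes for HI.3147 against HI.3146 and 0 for HI.3147 against HI.3083.

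Cholesterol genes and several cell type markers were among the genes called between V6 and V7 and V2 and V3. Npas4 had a large difference with a large error: it was higher by 2.77 ± 0.96 (log2, SE), with an adjusted p of 0.0892 in edgeR's quasi-likelihood test. Over all genes tested 7.46% were called higher and 9.91% lower, and no call was made when V2, V3, V6 or V7 was left out. Of the activity-dependent effectors 0 of 20 were called and of the immediate early factors 3 of 15. Of 15 genes of cholesterol biosynthesis 13 rose, with a median log2 difference of 1.1715 against -0.01 for all ranked genes. Hmgcs1, an early enzyme of the pathway, rose by 1.55 ± 0.33 (edgeR adjusted p = 0.033). Hmgcs1 stood at 304 and 399.7 CPM in V2 and V3 and at 1062 and 1013 in V6 and V7. No member of that list fell. Its average deviation of log2 CPM was -0.48, -0.66, -0.43, -0.23, 0.13, 0.64, 0.56, 0.62 and -0.15 in V1 to V9. V8 and V9, which share a run code, thus lay on opposite sides of the mean. These contrasts used the ranking's own libraries, so they describe the same spread from another side.

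The counts that follow are read beside 7.46% of all genes tested that were higher and 9.91% that were lower, and none of the calls was made when V2, V3, V6 or V7 was left out. Of 7 excitatory neuron markers 5 rose and none fell. Slc17a7 rose by 0.91 ± 0.18 (edgeR adjusted p = 0.0299). Of 9 pan-neuronal markers 4 rose and none fell, whereas of 9 inhibitory neuron markers 2 fell and none rose. Of 9 astrocyte markers 5 fell and 1 rose. Gfap fell by 1.1701 on the log2 scale (SE 0.21, adjusted p = 0.0279). Of 8 NRF2 targets 5 fell and none rose, among them Slc7a11, whose log2 difference was -2.34 (SE 0.29), and of 5 metallothionein and zinc export genes 3 fell, among them Mt2, with a log2 difference of -1.7839 (SE 0.41, adjusted p = 0.0359). Of 6 oligodendrocyte precursor markers 4 rose. Among the largest falls of genes with a mean of at least 1 CPM were Olfr287 (log2 difference -3.48), Plscr2 (-3.01), Hvcn1 (-2.86) and Traf1 (-2.71). Cell type markers moved together with the lipid and NRF2 lists in these libraries, and their part in those lists was not tested.

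Drug libraries of the same lane were then set beside the vehicles. Each vehicle was compared with the mean of its own lane-mates, and the mean distance over the 9 vehicles was 0.175. Over all 362880 ways to assign the 9 sets of lane-mates to the 9 vehicles the mean was 0.318, and the two-sided exact permutation p was 8.27e-06. The same test with the rest of each vehicle's run code in place of its lane-mates gave 0.257 against 0.290 (exact permutation p = 0.137); it passed the threshold without V2 (p = 0.0252, exact permutation) and without V5 (p = 0.0158). Counted over single libraries, lane-mates were closer to their vehicle than the rest of its run code, with a mean difference of -0.115 (SD 0.0907, n = 9 vehicles, below 0 in 8 of 9, exact sign-flip permutation p = 0.00781). The rest of the run code minus other run codes gave -0.0463 (SD 0.0682, n = 9, below 0 in 6 of 9 vehicles, exact sign-flip permutation p = 0.0859). Without V2 or without V5 that p was 0.0469 and 0.0391. The sign flips took the 9 vehicles as independent, although V2 and V3, V6 and V7, and V8 and V9 share a run code. The sign-flip p-values may therefore be too small.

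**Figure D4:**
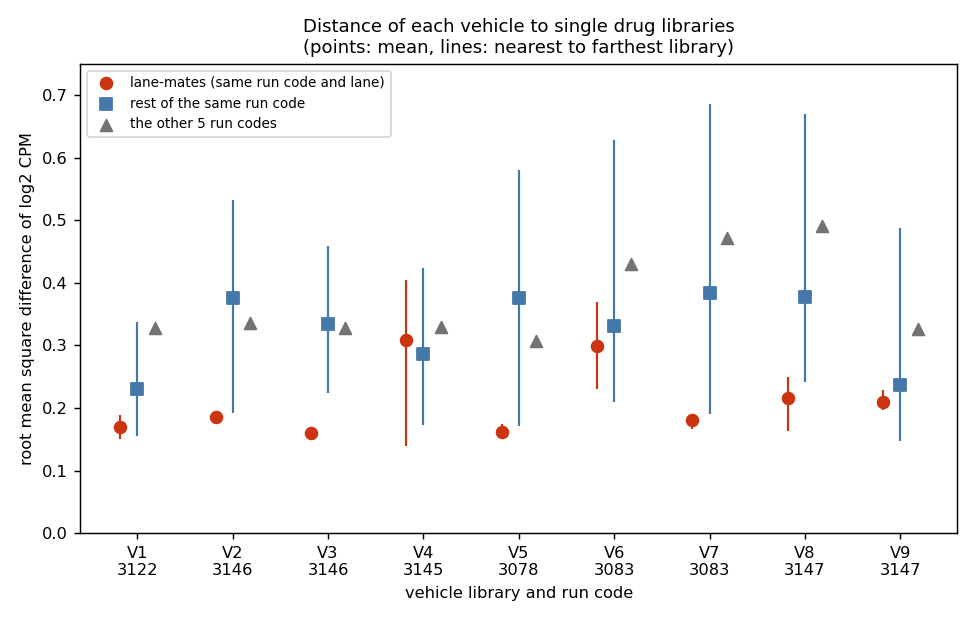
Mean root mean square difference of log2 CPM from each vehicle to its lane-mates (circles), to the other drug libraries of its run code (squares) and to the other 5 run codes (triangles), with lines from the nearest to the farthest library for the first 2. Lane-mates are closest on average for all vehicles except V4, and the lane-mates of V4 and V6 are spread or far.

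The spread of single genes followed the same split. Subtracting the lane-mates' mean from each vehicle left a median of 49.5% of the variance over all ranked genes, and 10621 genes (81.5%) had less spread than before. Subtracting the rest of the run code left 99.5%, and 50.9% of genes had less spread. The second cluster was followed most closely (25.2% left at the median), the fourth next (29.6%), then the first (50.2%) and the third (74.6%). For Slc7a11 7.21% of the variance was left, for Slc17a7 10.1% and for Ptgds 12.3%, but for Ptgs2 60.8%, for Acta2 70.7% and for Yam1 80.9%.

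The leading gene of each cluster was also compared with its lane-mates by an exact permutation test. A leading gene is the member of highest variance and need not stand for its cluster. Ptgds differed from its own lane-mates by 0.30 on the log2 scale on average, against 1.339 over all assignments (adjusted exact permutation p = 0.00353 over 8 tests), and from the rest of its run code by 0.70 (adjusted p = 0.0711, exact permutation). Krt6a, Acta2 and Rn18s-rs5 did not pass against lane-mates (adjusted exact permutation p = 0.231 for each). In V6 the 2 kinds of gene parted: it had 113 CPM of Npas4 and its lane-mates 5.03 to 64.1, while Ptgds was 42.7 in V6 and 36.8 to 47.1 in its lane-mates. In V7, Npas4 was at 118 and its 3 lane-mates ran from 24.3 to 242. All lane-mates were treated with drugs, and the part of the drugs in such gaps was not tested.

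V4 had lane-mates of 2 kinds. Acetylcysteine, label number 92, was 0.139 from V4, the nearest of all drug libraries. Aprepitant and cyproheptadine, numbers 88 and 89 in the same lane, were 0.404 and 0.384 from V4 but 0.158 and 0.184 from V3, which carries another run code. The lane-mates of V3 itself are numbers 83 and 87. The nearest drug libraries of V5 were numbers 157 and 160 of run code HI.3083, where its own lane-mates are 150 to 152 of run code HI.3078. Among drug libraries, pairs with consecutive numbers and different run codes were 0.313 apart at the median (56 pairs), pairs with consecutive numbers within a lane 0.199 (129 pairs), and pairs with neither consecutive numbers nor a shared run code 0.336 (20784 pairs). Within a run code, consecutive numbers in different lanes were 0.215 apart (31 pairs), numbers that were not consecutive but shared a lane 0.242 (184 pairs), and pairs that shared neither 0.271 (2469 pairs). Label number and lane thus both moved with distance, and their parts in the lane-mate result were not tested separately. These pairs share libraries and are given without a test.

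Xist, the RNA that coats the inactive X chromosome in female cells, set the same libraries apart. It had 777, 824, 177, 733, 674, 795, 641, 562 and 832 CPM in V1 to V9, so that V3 stood alone below the other 8. Ddx3y and Eif2s3y, genes of the Y chromosome, were highest in V3, at 149 and 75.7 CPM, with the other vehicles at 69.1 to 128 and 35.6 to 57.5. Hspa8, a constitutive heat shock protein, was 38.2 CPM in V3 and 78.9 to 120 in the other 8. Cultures were made from embryos, and the labels do not give the sexes pooled in each.

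Of the 218 drug libraries, 6 had Xist below 400 CPM, and the highest of them, at 189, was far from the lowest of the rest, at 539. The limit was set after the values were seen. The 6 are numbers 79 and 80 of run code HI.3254, 83 and 87 of HI.3146, which are the lane-mates of V3, and 88 and 89 of HI.3145. All 6 also had Hspa8 at 38.9 CPM or less, and no other drug library was under 68.1. Libraries with numbers between them did not share the low level: numbers 81, 82 and 84 of run code HI.3147 had 911, 801 and 853 CPM of Xist, and 85 and 86 of HI.3139 had 772 and 902. Within lane 1 of run code HI.3145, numbers 88 and 89 had 173 and 182 CPM and number 92 had 797. Libraries that shared this level thus lay on 3 run codes, and a single lane held both levels.

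**Figure D5:**
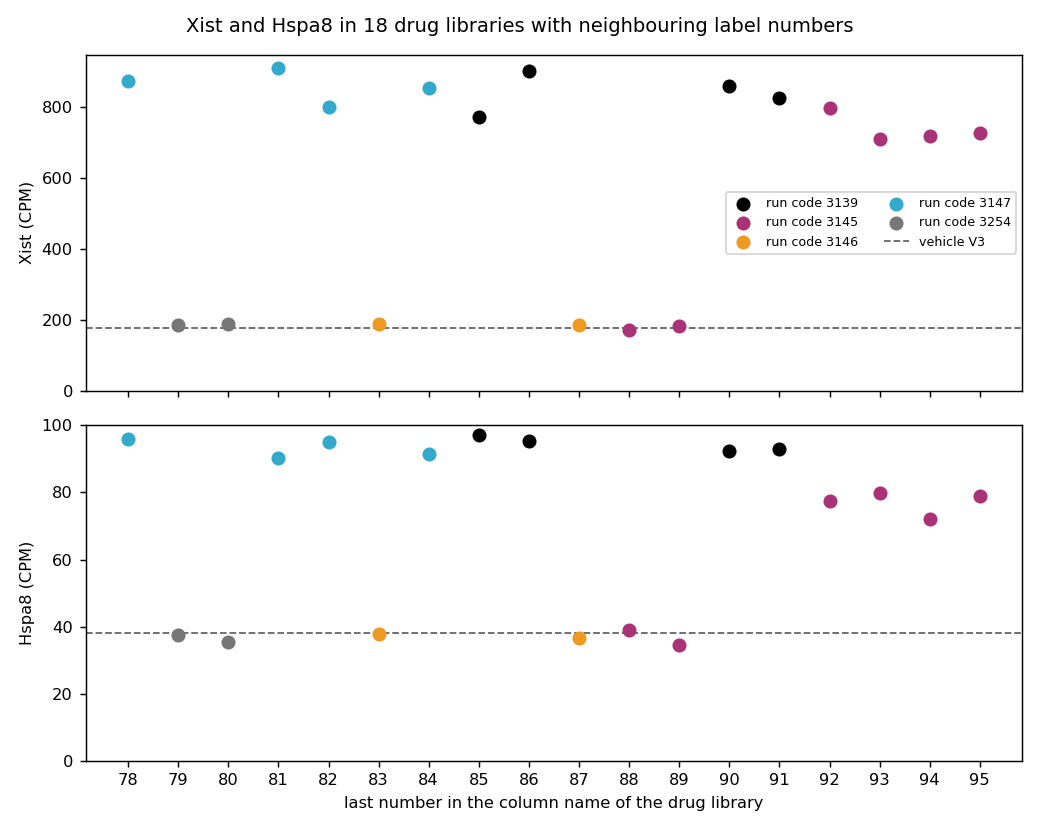
Xist and Hspa8 in CPM (linear axes from 0) for the 18 drug libraries with label numbers 78 to 95, coloured by run code, with the level of V3 as a dashed line. Numbers 79, 80, 83, 87, 88 and 89, on 3 run codes, lie at the level of V3 for both genes, and the other 12 lie well above.

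Among drug libraries run codes did differ. Over the 174 libraries of the 6 codes, edgeR's quasi-likelihood F test called 13588 of 15160 genes (89.6%), and the run code held a median of 23.7% of the variance of a ranked gene. It held 37.5% for the 100 most variable genes, with 61.3% in the cluster of Ptgds, 41.9% in that of Acta2, 34.2% in that of Krt6a and 6.495% in that of Rn18s-rs5. Each drug was given once and the codes hold different drugs, so that code and drug set cannot be told apart.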

How the data were processed

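RNA of 227 cultures was sequenced from stranded mRNA libraries, per the labels' protocols. STAR 2.4.0, Subread 1.4.6, limma, edgeR 3.10.5 and genome build mm10 are named in the submitters' processing notes, with no order given. Raw counts per gene were deposited by the authors in 1 table of 31689 genes; a table of RPKM values was not used here.

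Library sizes were scaled with TMM over all libraries, and log2 CPM used a prior count of 1. Genes with a mean of at least 1 CPM over the vehicles were ranked by variance. Tests of counts used edgeR 4.0.16 quasi-likelihood (R 4.3.3) on the deposited counts, with DESeq2 1.42.0 and limma 3.58.1 as alternatives and Benjamini-Hochberg adjustment over all genes tested; a vehicle alone on its code was assumed to vary like the others. Single values used exact permutation tests over libraries (numpy 2.4.6, scipy 1.17.1). Clusters used average linkage on 1 minus r with a height of 0.5. Scripts were tested on simulated counts in which genes varied independently of each other. There 88% of genes changed by 1 on the log2 scale were recovered between HI.3083 and HI.3146, with 6 false calls among 15184 genes.

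Named genes were the 25 most variable, the 3 most variable of each of 36 lists (357 of 358 members found), the 5 steadiest with a mean of 10 CPM, the largest rises and falls between run codes, and cluster leaders; Arc, Lyz2, Aldh1a2, Slc13a4, Itih2 and Apod were added after their values were seen, as were the cluster members named without values. The members and lists were chosen with earlier results of these data known. The tests of single libraries and of leading genes, and the look at label numbers, were also chosen after seeing the data. Gene positions and promoters come from GENCODE vM21 and RefSeq. No interval is given for single counts; the limit of 3 counts for a count of 0 covers counting error only. Some genes that the rule names are not reported here.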

Additional observations from a re-analysis of the deposited data

Results flagged for a closer look

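A gap rule (Dixon's, at 95%) was applied to the 9 vehicles for 98 values: genes described here (as log2 CPM), the list averages and the library measures. It marked 5, about the 1 in 20 that chance gives, so only their sizes are reported. Xist was 177 CPM in V3, the lowest of the 9, and Hspa8 was lowest in the same library at 38.2 CPM; both values recurred in the lane-mates of V3, at 184 to 189 and 36.5 to 37.7 CPM. Bcas1 was lowest in V4 at 4.52 CPM. Csf1r was highest in V1 at 4.44 CPM. Copz1, among the steadiest genes, was highest in V7 at 113 CPM, a small step from the 107 to 109.8 of the rest.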

How the results depend on the processing

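The count of genes called between all run codes among vehicles was 1213 with no filter on low counts and 2155 with DESeq2's likelihood ratio test, against 0; leaving out each vehicle in turn gave 0 to 2485. For HI.3083 against HI.3146 leaving out each vehicle gave 0 to 4832. For HI.3147 against HI.3146 it gave 0 to 3868, with 1675 under no filter and 1916 with DESeq2; for HI.3147 against HI.3083 it gave 0 to 1. With the 500 genes most variable over the 174 drug libraries, the vehicles' distance to the rest of their run code passed the threshold (0.777, exact permutation p = 0.0418). Over all ranked genes, leaving out each vehicle gave 0.247 to 0.275. The difference between the rest of the run code and other codes ran from -0.0606 to -0.0378 over vehicles left out. The cause of these shifts was not tested. The distance to lane-mates kept its direction and its call in all 13 alternatives, and of the 100 most variable genes 86 to 97 were kept under other rankings (18 to 25 of the first 25). With run codes centred Ttr and Slc7a11 had r = 0.157. Relations of Acta2 changed sign with run codes centred (Ptgs2 -0.0395, Fosb -0.0541, Adm -0.0173, Slc7a11 -0.0507) and over all 9 run codes (Ptgs2 -0.00473, Fosb -0.00317). Each drug group holds 1 library, so no drug could be paired with the vehicles over several replicates. Vehicles were matched with drug libraries by run code and lane instead. Genes near 1 CPM, such as Acta2, rest on few counts in some vehicles, and depth limits what can be said of them.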
